A study of Mus musculus with 15 samples.

Results

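Cells limit peroxides and superoxide with a small set of enzymes, many of which draw on glutathione and thioredoxin. Here 38 genes of this defense were followed by RNA-seq in 3T3-L1 cells, a mouse preadipocyte line, on day 2 of adipocyte differentiation. The 38 genes were chosen by name as glutathione peroxidases, superoxide dismutases, peroxiredoxins, thioredoxin and glutathione genes and NRF2 targets, and they are 38 of the 26301 genes counted in each library. JMJD1A, encoded by Kdm3a (also called Jmjd1a; mm9 chr6:71538968-71582899, minus strand), is an iron-dependent demethylase of histone H3K9, and the study asked which transcripts depend on it and on its iron-dependent activity. All cells were taken 2 days after induction with insulin, dexamethasone and IBMX. The 15 libraries formed 5 groups of 3. The sh-Empty cells carried the control retrovirus, and the sh-Jmjd1a cells a retrovirus with a short hairpin RNA against Jmjd1a. In the other 3 groups, sh-Jmjd1a cells also carried a second retrovirus expressing LacZ as control, JMJD1A(WT), or JMJD1A(H1122A), the last mutated at an iron-binding residue and called only a mutant in the labels. Every line was a retrovirally infected, antibiotic-selected population, and the LacZ group, like the other rescue groups, kept the hairpin. The sources do not say whether the 3 replicates of a group came from separate infections or cultures, so p-values measure only the spread between these libraries.

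The gene set covers 3 linked reactions. Superoxide dismutases turn superoxide into hydrogen peroxide. Catalase splits the peroxide, and glutathione peroxidases and peroxiredoxins remove it with electrons from glutathione or thioredoxin. Glutathione reductase and thioredoxin reductases recharge these electron donors with NADPH. Glutathione is built from cysteine, largely imported as cystine by xCT (Slc7a11), by the enzymes of Gclc, Gclm and Gss. Ferroptosis is a form of cell death driven by iron and lipid peroxides, held back by GPX4 with glutathione and, independently, by AIFM2 (also called FSP1) through reduced coenzyme Q. The transcription factor NRF2 (Nfe2l2), kept low by KEAP1, binds antioxidant response elements of many of these genes. Adipocytes make large amounts of NADPH and lipid, and reactive oxygen rises as preadipocytes mature.

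Some of these enzymes carry selenocysteine, written in the mRNA as TGA, at the catalytic position where their relatives carry cysteine. The glutathione peroxidases with each residue moved in different directions on knockdown, a split noticed in these values and not tested. For that reason the coding sequence around the catalytic codon is shown for the 5 glutathione peroxidases, read from the mm9 genome with the GENCODE annotation of that build, 5′ to 3′ on the coding strand. Capitals mark the selenocysteine (TGA) or cysteine (TGT or TGC) codon.
Gpx1: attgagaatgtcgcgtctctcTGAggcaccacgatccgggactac
Gpx3: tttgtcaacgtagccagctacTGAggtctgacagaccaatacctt
Gpx4: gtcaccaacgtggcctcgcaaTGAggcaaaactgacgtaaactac
Gpx7: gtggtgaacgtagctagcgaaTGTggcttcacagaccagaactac
Gpx8: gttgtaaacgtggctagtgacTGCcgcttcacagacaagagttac
The capital codons stand at chr9:108241782-108241784 (plus strand), chr11:54720758-54720760 (plus), chr10:79517482-79517484 (plus), chr4:108076035-108076037 (minus) and chr13:113835869-113835871 (minus). In both thioredoxin reductases the selenocysteine codon is followed by a single codon and then the stop.
Txnrd1: gacatcctccagtctggctgcTGAggttaa
Txnrd2: gagcctactgtgactggttgcTGAggctaa
These TGA codons stand at chr10:82358782-82358784 and chr16:18477865-18477867, both on the plus strand.

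The promoters of Aifm2 and Mgst3, which shared a pattern of change, are shown next. Beside them stand those of Nqo1, which went the opposite way, and Gclm, which was called only on knockdown. RefSeq promoter sequences of build GRCm38.p6, a later build than the mm9 of the counts, run from 250 bases before to 50 bases after a start site, and 32 of the 38 genes had 39 promoters there. Sod3, Prdx6, Gclc, Gsr, Hmox1 and Gsta4 were not in that table. The core of the antioxidant response element was searched as TGACNNNGC on both strands. It was found in 7 of the 39 promoters (17.9%), against 12.4% of the 32851 promoters of the table, in Nfe2l2, Srxn1, Gclm, Prdx1, Mgst1, Txnrd1 and Sod1. Aifm2 and Mgst3 were the 2 genes lower on knockdown, higher with JMJD1A(WT) than LacZ and lower with JMJD1A(H1122A) than JMJD1A(WT), and Nqo1 went the opposite way in all 3 comparisons. Their promoters held no match, and that of Gclm, which carries a match (capitals, on the minus strand), is set beside them. Gclm had the signs of Aifm2 and Mgst3 in the same comparisons (log2 fold change -0.38, 0.20 and -0.13), but only the first was called. Mgst1, which has a match, was called lower on knockdown and higher with JMJD1A(WT) than LacZ.
Aifm2: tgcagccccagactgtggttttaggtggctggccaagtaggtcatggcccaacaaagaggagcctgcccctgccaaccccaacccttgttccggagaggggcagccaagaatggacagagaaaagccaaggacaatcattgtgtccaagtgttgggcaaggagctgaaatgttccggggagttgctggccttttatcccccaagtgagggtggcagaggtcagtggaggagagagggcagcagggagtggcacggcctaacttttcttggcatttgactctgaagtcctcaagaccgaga
Mgst3: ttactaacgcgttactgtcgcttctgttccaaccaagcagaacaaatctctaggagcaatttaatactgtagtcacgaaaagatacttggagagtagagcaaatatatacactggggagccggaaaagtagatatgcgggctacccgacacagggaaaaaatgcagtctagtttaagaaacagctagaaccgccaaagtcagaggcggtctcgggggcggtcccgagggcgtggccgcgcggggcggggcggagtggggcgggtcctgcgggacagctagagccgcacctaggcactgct
Nqo1: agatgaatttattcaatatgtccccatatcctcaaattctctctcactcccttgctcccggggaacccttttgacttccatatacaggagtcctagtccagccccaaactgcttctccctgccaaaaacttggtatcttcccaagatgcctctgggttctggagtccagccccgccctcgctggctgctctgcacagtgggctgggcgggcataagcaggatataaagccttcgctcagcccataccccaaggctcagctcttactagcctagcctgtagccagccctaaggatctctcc
Gclm: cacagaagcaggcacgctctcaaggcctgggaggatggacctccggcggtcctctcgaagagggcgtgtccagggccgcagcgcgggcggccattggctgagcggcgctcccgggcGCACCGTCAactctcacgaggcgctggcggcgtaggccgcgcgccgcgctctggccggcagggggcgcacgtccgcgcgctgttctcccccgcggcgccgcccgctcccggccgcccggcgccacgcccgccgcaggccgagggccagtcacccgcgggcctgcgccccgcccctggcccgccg
They span chr10:61720399-61720698 (plus strand), chr1:167393792-167394091 (minus), chr8:107403156-107403455 (minus) and chr3:122245307-122245606 (plus) of GRCm38.p6. A match describes letters and not a bound site, and its absence says only that these letters are not in this window.

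Library totals ran from 11437058 to 25523148 counts, with JMJD1A(WT) replicate 3 the deepest. Libraries of a group differed by 2.06 to 5.22 times the chi-square of pure counting noise per degree of freedom, and sh-Jmjd1a replicate 3 stood apart in its group (4.49 and 5.22 against its sister libraries, which differed from each other by 2.17). JMJD1A(WT) replicate 2 (3.33 and 4.70, against 2.73 between the other two) and LacZ replicate 1 (4.26 and 3.38, against 2.46) also stood apart, by less. Levels below are CPM, counts scaled to library size and by TMM factors within the knockdown set (sh-Empty and sh-Jmjd1a) or within the rescue set (the other 3 groups), so levels are compared within a set only. A gene is called lower or higher where edgeR's quasi-likelihood test, adjusted over all genes tested, gave an adjusted p under 0.05. Kdm3a read 171, 174 and 185 CPM in sh-Empty and 129, 128 and 138 CPM in sh-Jmjd1a (log2 fold change -0.42 ± 0.048 (SE), edgeR adjusted p = 2.91e-08). It read 119 ± 2.62 CPM in LacZ, 1690 ± 69.01 in JMJD1A(WT) and 2197 ± 92.2 in JMJD1A(H1122A) (SD, n = 3), and gene counts do not separate the introduced from the endogenous transcript. JMJD1A(H1122A) cells thus held 1.30-fold the Kdm3a reads of JMJD1A(WT) cells (log2 fold change 0.38 ± 0.034 (SE), edgeR adjusted p = 3.94e-12), and the part of this gap in the comparison of these groups was not tested.

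Preadipocyte markers were present in every library, and adipocyte markers differed in level between groups. All 10 genes of a preadipocyte and fibroblast list were detected in every library, with summed levels of 16760 to 17130 CPM in sh-Empty, 24820 to 25050 in sh-Jmjd1a, and 27190 to 29400 over the rescue libraries. Fn1 (100070 to 349438 counts a library) and Col1a2 (34706 to 177681) reached the highest counts of that list. The 10 adipocyte markers, all detected, summed to 5286 to 5335 CPM in sh-Empty and 2680 to 2788 in sh-Jmjd1a. They summed to 3331 to 3435 CPM in LacZ, 3885 to 4252 in JMJD1A(WT) and 2586 to 2684 in JMJD1A(H1122A), so the sums moved with every comparison below, and their part in the results was not tested. Lpl held most of each sum, with 27233 to 76100 counts a library, beside 1079 to 10987 for Fabp4 and 40 to 849 for Adipoq. In bulk RNA, fewer differentiated cells and less RNA per cell cannot be told apart. The 5 skeletal muscle markers summed to 14.54 to 17.12 CPM in JMJD1A(WT), against 3.589 to 5.105 in LacZ and 2.168 to 3.237 in JMJD1A(H1122A), and to 2.322 to 4.177 in sh-Empty and 2.18 to 3.374 in sh-Jmjd1a. Nearly all of this was Des (desmin), with 25 to 365 counts a library, while Myod1, Myog and Ckm had 0 in all and Myh3 at most 6. The 8 leukocyte markers summed to 2.336 to 4.054 CPM in LacZ, 4.427 to 5.366 in JMJD1A(WT) and 4.955 to 5.367 in JMJD1A(H1122A), with Ptprc and Adgre1 at no more than 1 count in any library. The muscle sums thus differed in every rescue comparison. The leukocyte sums differed between LacZ and both other rescue groups but overlapped between JMJD1A(WT) and JMJD1A(H1122A). The part of these sums in the results was not tested. In the knockdown set the leukocyte sums were 3.856 to 5.596 CPM in sh-Empty and 4.203 to 4.796 in sh-Jmjd1a. The 5 endothelial markers summed to 0.5784 to 1.552 CPM over all libraries, and the 5 epithelial markers to at most 0.7785, with Krt5 at 0 in all.

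Of the 38 genes, 37 passed the count filter in both sets. The exception was Gpx3, the secreted plasma glutathione peroxidase, which had 0 to 7 counts in 14 libraries and 89 in sh-Empty replicate 3, and is described no further. The members were abundant transcripts, with a median of 99.1 CPM against 31.2 for the 12272 genes tested in the knockdown set, and 92.1 against 29.4 for the 12557 tested in the rescue set. Per kilobase of exon, the highest in sh-Empty were Gpx1 at 416 ± 14.9 and Sod1 at 405 ± 7.70 CPM per kb, and the lowest were Txnrd2 at 2.37 ± 0.36 and Slc7a11 at 0.251 ± 0.069 CPM per kb (SD, n = 3). Together the 38 genes took 0.393% to 0.441% of all counts in the knockdown set and 0.390% to 0.415% in the rescue set.

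Knockdown split the defense genes in both directions. Of the 37 tested, 15 fell in sh-Jmjd1a relative to sh-Empty (background: 23.9% of all genes tested were called lower) and 10 were higher (background 22.3%). The 2 groups' libraries did not overlap for 29 members (background 53%). Together 67.6% of members were called against 46.2% of all genes, and among genes above the median level 66.7% of members against 58.6% of genes, so the share called lay near that of equally abundant genes. The members' median log2 fold change was -0.063, against -0.0032 over all genes. Without sh-Jmjd1a replicate 3 the number called higher became 16, with Cat, Srxn1, Txn1, Nfe2l2, Gstm2 and Gstp1 added.

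JMJD1A(WT) moved fewer of them. Of the 37, 5 were lower in JMJD1A(WT) than in LacZ (background 4.52%) and 3 were higher (background 4.98%), together 21.6% of members beside 9.5% of all genes, with 12 not overlapping (background 22.9%). Among genes above the median level, 23.3% of members were called beside 12.7% of genes. Without LacZ replicate 3 the 5 called lower became 3. JMJD1A(H1122A) against JMJD1A(WT) called 8 lower (background 11.7%) and 12 higher (background 12.1%), with 23 not overlapping (background 37.1%). Without JMJD1A(WT) replicate 3 these became 5 lower and 7 higher, and 5 were lower also without LacZ replicate 3, JMJD1A(H1122A) replicate 1 or 2, or JMJD1A(WT) replicate 1 or 2. The 54.1% of members called stands beside 23.8% of all genes, or 56.7% of the members above the median level beside 33.0% of such genes. JMJD1A(H1122A) against LacZ called 3 lower (background 4.46%) and 6 higher (background 4.78%), together 24.3% beside 9.24% of all genes, with 15 not overlapping (background 25.1%). Above the median level this was 23.3% of members beside 14.2% of genes. The members were chosen with earlier results of these data known, so these shares are descriptions and not tests. The members' median log2 fold change in these 3 comparisons was -0.018, 0.063 and 0.043, against -0.00014, -0.0012 and 0.00052 over all genes. The 3 comparisons share libraries pairwise, so a high or low JMJD1A(WT) level enters more than 1 of them.

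**Figure D1:**
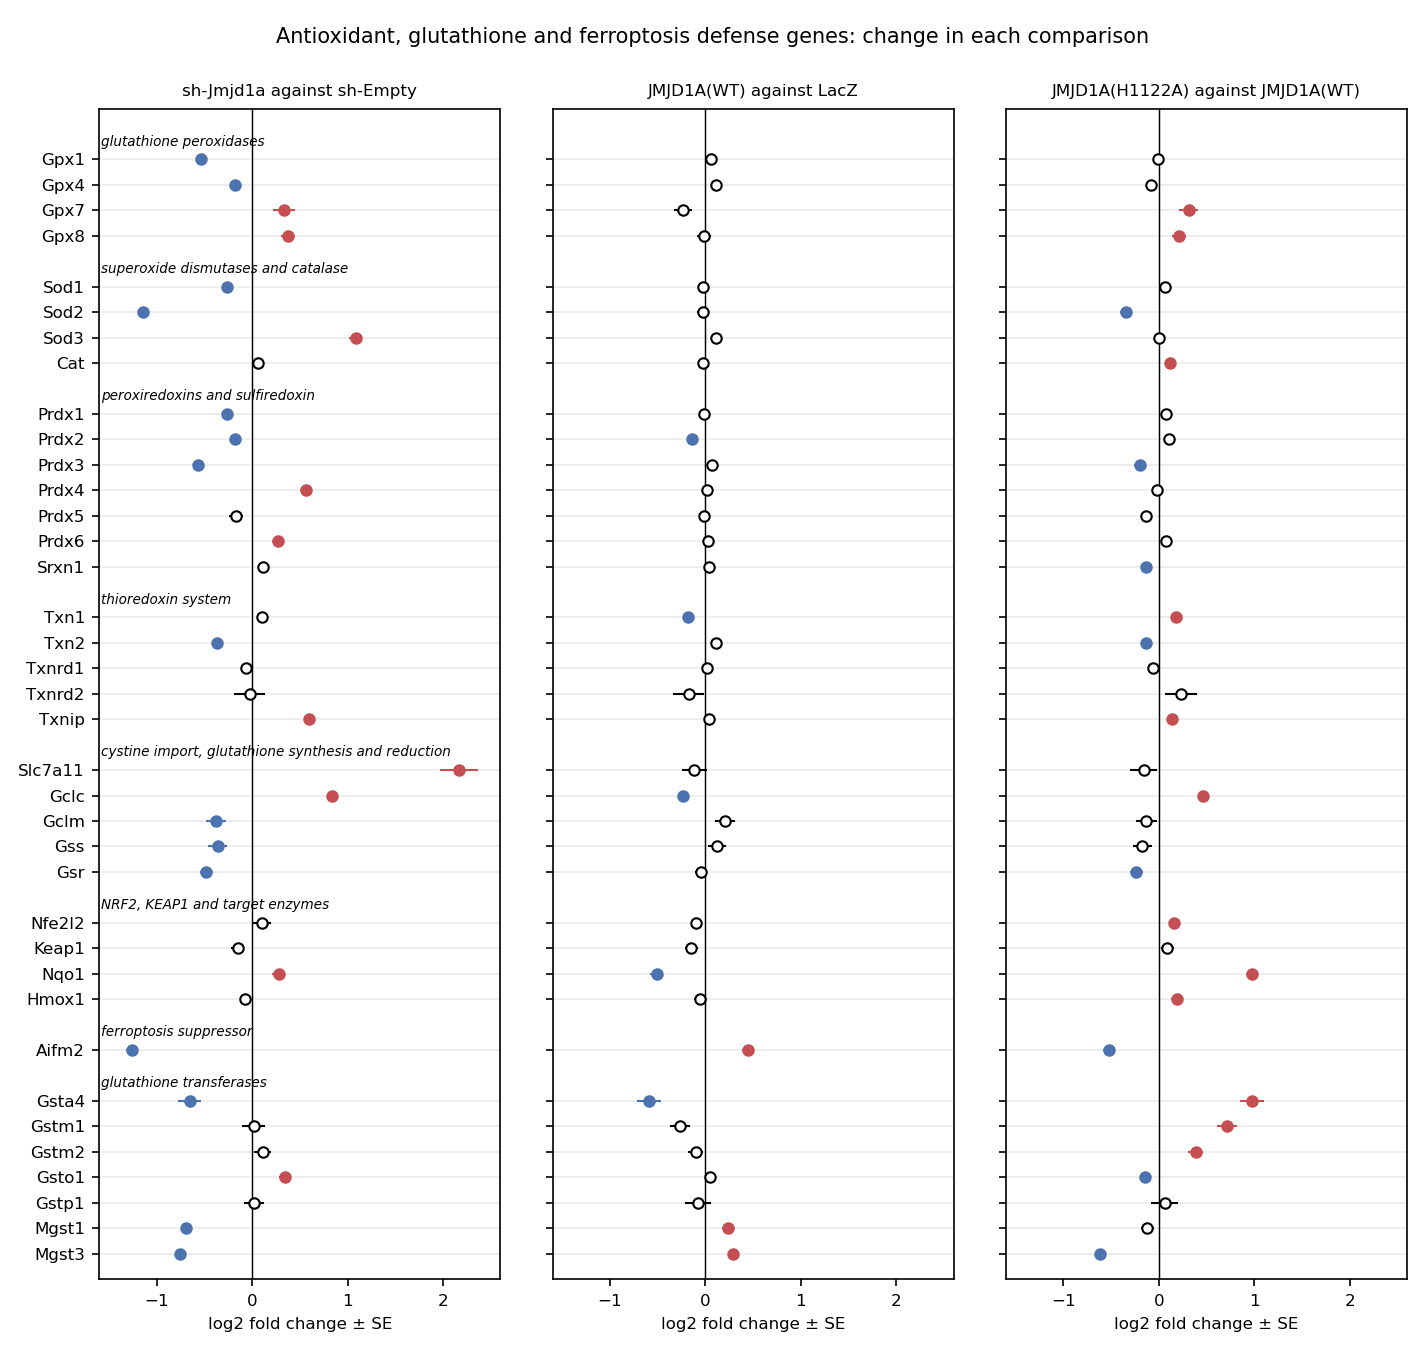
Log2 fold change (x axis) with its standard error for each of the 37 tested genes (rows, grouped by role) in sh-Jmjd1a against sh-Empty, JMJD1A(WT) against LacZ and JMJD1A(H1122A) against JMJD1A(WT). Blue points were called lower and red points higher at an adjusted p under 0.05, open points were not called; knockdown changes run from -1.26 (Aifm2) to 2.17 (Slc7a11), while no change in the other panels passes 1 in either direction.

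AIFM2 reduces coenzyme Q at membranes and holds back ferroptosis without glutathione, and Aifm2 (mm9 chr10:61178011-61202008, plus strand) had the largest fall of the set on knockdown. It read 130.4, 133 and 138 CPM in sh-Empty and 58.6, 55.1 and 54.1 CPM in sh-Jmjd1a, a 2.4-fold lower level (log2 fold change -1.26 ± 0.055 (SE), edgeR adjusted p = 4.60e-17). All 3 control libraries lay above all 3 knockdown libraries. In the rescue set it read 69.4, 65.3 and 67.2 CPM in LacZ, 95.4, 100.1 and 83.1 in JMJD1A(WT) and 65.6, 65.3 and 60.2 in JMJD1A(H1122A). JMJD1A(WT) stood above both other groups in every library (log2 fold change 0.45 ± 0.061 (SE), edgeR adjusted p = 3.08e-07 against LacZ). JMJD1A(H1122A) lay below JMJD1A(WT) (log2 fold change -0.53 ± 0.062 (SE), edgeR adjusted p = 5.18e-09). Between JMJD1A(H1122A) and LacZ the libraries overlapped (log2 fold change -0.077 ± 0.066 (SE), edgeR adjusted p = 0.552). Aifm2 is on a list of JMJD1A-dependent genes that the study chose from the RNA of these same samples together with H3K9me2 CUT&Tag at start sites. Its RNA direction is thus not independent evidence. Its exons overlap 244 bases of H2afy2 on the opposite strand. The strand setting of the counting is not given in the sources used here, so reads of such an overlap cannot be assigned, which also holds for Prdx2, Prdx5, Txnrd2, Txnip, Gclm, Gss and Keap1.

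GPX4, the other arm that removes lipid peroxides, moved little. Gpx4 read 252, 236 and 233 CPM in sh-Empty and 214, 219.8 and 204 CPM in sh-Jmjd1a (log2 fold change -0.18 ± 0.045 (SE), edgeR adjusted p = 0.00173). Its groups did not overlap, but the fall was 1.13-fold. In the rescue set it read 196 ± 10.2 CPM in LacZ, 212 ± 1.67 in JMJD1A(WT) and 201 ± 7.39 in JMJD1A(H1122A) (SD, n = 3), and no comparison was called (edgeR adjusted p = 0.105, 0.221 and 0.709 for JMJD1A(WT) against LacZ, JMJD1A(H1122A) against JMJD1A(WT) and against LacZ).

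Among the glutathione peroxidases, the 2 tested genes with a selenocysteine codon were lower on knockdown and the 2 with a cysteine codon were higher. The 2 with cysteine are also the 2 of the endoplasmic reticulum, so residue and place cannot be told apart. Selenocysteine genes outside this family did not all fall: Txnrd1 and Txnrd2 were not called, and the selenoprotein gene Dio2 was higher (log2 fold change 1.76). Gpx1, the abundant cytosolic enzyme, read 353, 339 and 364 CPM in sh-Empty and 261, 250.9 and 218 CPM in sh-Jmjd1a (log2 fold change -0.54 ± 0.052 (SE), edgeR adjusted p = 1.07e-08). Its rescue libraries spanned 215 to 244 CPM with the 3 groups overlapping, and none of the comparisons was called. Gpx7 and Gpx8 encode peroxidases of the endoplasmic reticulum that act in oxidative protein folding. Gpx8 read 35.2, 34.4 and 35.4 CPM in sh-Empty and 42.9, 46.3 and 47.2 CPM in sh-Jmjd1a (log2 fold change 0.38 ± 0.073 (SE), edgeR adjusted p = 8.50e-05), without overlap. Gpx7 read 14.5, 15 and 12.9 CPM and 17.4, 19.8 and 15.9 CPM (log2 fold change 0.33 ± 0.12 (SE), edgeR adjusted p = 0.0196). The Gpx7 call was lost without sh-Empty replicate 3 (log2 fold change 0.26, edgeR adjusted p = 0.127) or without sh-Jmjd1a replicate 2 (0.25, edgeR adjusted p = 0.127).

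Both endoplasmic reticulum peroxidases were also higher with JMJD1A(H1122A) than with JMJD1A(WT). Gpx7 read 21.6, 25.9 and 23.7 CPM in LacZ, 21.6, 21.7 and 18.3 in JMJD1A(WT) and 22.4, 25.6 and 27.2 in JMJD1A(H1122A) (log2 fold change 0.32 ± 0.10 (SE), edgeR adjusted p = 0.0161 for JMJD1A(H1122A) against JMJD1A(WT)). Gpx8 read 41.99, 44.2 and 39.1 CPM, 39.9, 45.03 and 39.8 and 47.3, 46.6 and 49.5 in the same order (log2 fold change 0.21 ± 0.071 (SE), edgeR adjusted p = 0.0259). Neither gene was called for JMJD1A(H1122A) against LacZ (edgeR adjusted p = 0.71 for Gpx7 and 0.0895 for Gpx8). Both JMJD1A(H1122A) calls were lost when single libraries were left out, JMJD1A(H1122A) replicate 3 and JMJD1A(WT) replicate 3 among them. The Gpx8 call was also lost with DESeq2.

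The 3 superoxide dismutases differed in direction and size. SOD2 works in the mitochondrial matrix, SOD1 mainly in the cytosol and SOD3 outside the cell. Sod2 (mm9 chr17:13200705-13210985, plus strand) read 140.3, 130.2 and 138 CPM in sh-Empty and 68.4, 59.6 and 57.97 CPM in sh-Jmjd1a, 2.203-fold lower (log2 fold change -1.14 ± 0.06 (SE), edgeR adjusted p = 2.43e-15). Sod3 (mm9 chr5:52755185-52762644, plus strand) went the other way, from 39.6, 41.3 and 40.7 CPM to 90.3, 89.05 and 78.95 CPM, 2.12-fold higher (log2 fold change 1.08 ± 0.066 (SE), edgeR adjusted p = 7.06e-14). Sod1 read 257, 262 and 267 CPM and 227, 219 and 207 CPM (log2 fold change -0.27 ± 0.043 (SE), edgeR adjusted p = 8.94e-06). None of the 3 pairs of groups overlapped.

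Neither the Sod2 nor the Sod3 difference was matched by a called change with JMJD1A(WT). Sod2 read 72.3, 63.7 and 65.8 CPM in LacZ and 62.6, 67.8 and 67.5 in JMJD1A(WT) (log2 fold change -0.026 ± 0.061 (SE), edgeR adjusted p = 0.872), with overlapping libraries. In JMJD1A(H1122A) it read 48.9, 52.2 and 55.4 CPM, below every library of both other groups (log2 fold change -0.34 ± 0.065 (SE), edgeR adjusted p = 5.58e-05 against JMJD1A(WT) and -0.37 against LacZ, edgeR adjusted p = 8.63e-05). Sod3 read 94.6 ± 7.43 CPM in LacZ, 102 ± 2.08 in JMJD1A(WT) and 103 ± 4.12 in JMJD1A(H1122A) (SD, n = 3), and Sod1 211 ± 9.47, 209 ± 9.99 and 218 ± 6.22, with no call for either. Catalase, the peroxisomal enzyme that splits hydrogen peroxide, was not called on knockdown (283 ± 4.201 against 295 ± 14.7 CPM, log2 fold change 0.062 ± 0.043 (SE), edgeR adjusted p = 0.249). Cat stood 0.12 higher (log2) in JMJD1A(H1122A) than in JMJD1A(WT) (edgeR adjusted p = 0.0305), a call lost without JMJD1A(H1122A) replicate 2 or 3 and without JMJD1A(WT) replicate 3 (for the last, edgeR adjusted p = 0.147).

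**Figure D2:**
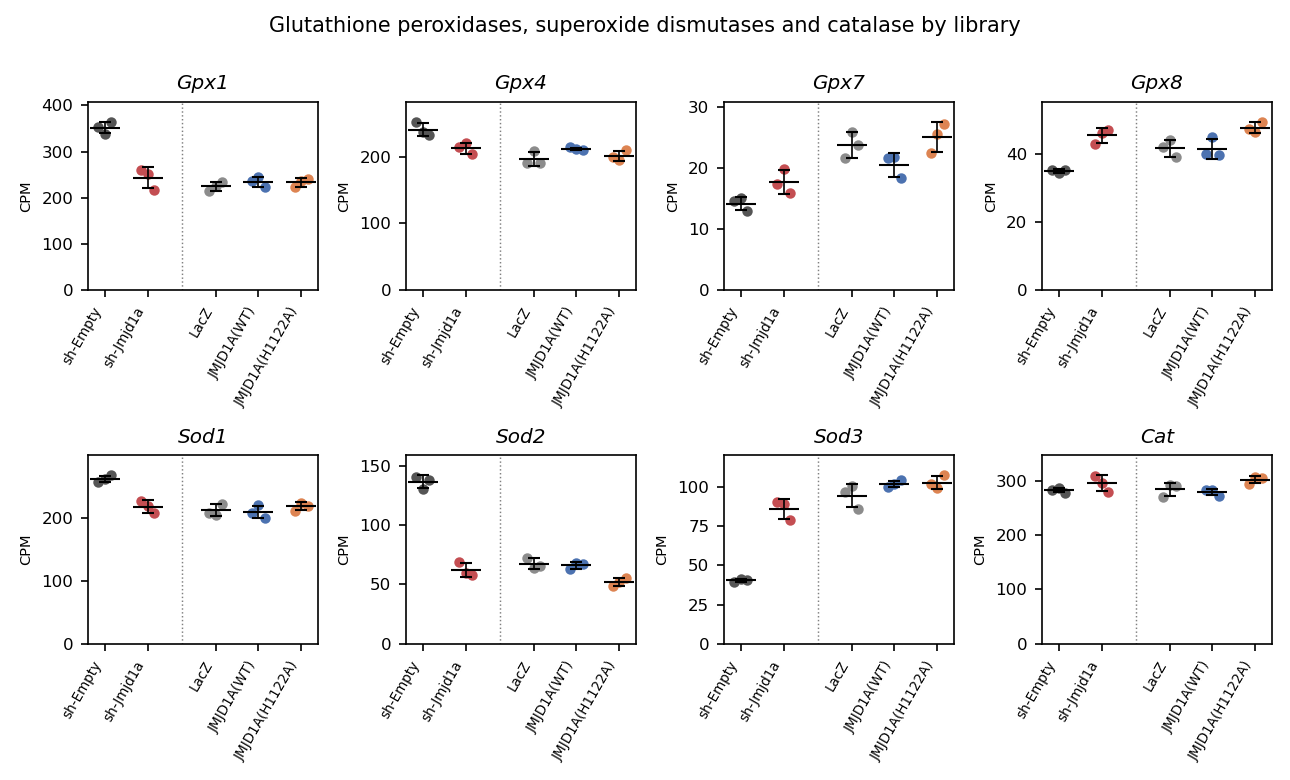
Normalized levels (CPM, y axis from 0) of Gpx1, Gpx4, Gpx7, Gpx8, Sod1, Sod2, Sod3 and Cat in each library by group (x axis), with the mean and SD of the 3 replicates as bars. The dotted line parts the knockdown set from the rescue set, which were scaled apart; Sod2 falls from 130.2 to 140.3 CPM in sh-Empty to 57.97 to 68.4 in sh-Jmjd1a, while Sod3 rises from 39.6 to 41.3 to 78.95 to 90.3.

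Peroxiredoxins reduce peroxides with thioredoxin, and their direction on knockdown differed by member. Prdx3, the mitochondrial peroxiredoxin, read 125, 123 and 129 CPM in sh-Empty and 87.9, 86.7 and 79.9 CPM in sh-Jmjd1a (log2 fold change -0.57 ± 0.053 (SE), edgeR adjusted p = 5.05e-10). Prdx4, the peroxiredoxin of the endoplasmic reticulum, read 109.5, 102 and 111 CPM and 172, 167 and 139 CPM (log2 fold change 0.57 ± 0.066 (SE), edgeR adjusted p = 7.42e-07). Both gaps were free of overlap. The cytosolic Prdx1 and Prdx2 fell by 0.27 and 0.18 on the log2 scale (edgeR adjusted p = 5.13e-06 and 8.93e-04), and Prdx6, whose enzyme uses glutathione, rose by 0.27 (edgeR adjusted p = 1.92e-04). Prdx5 (-0.17, edgeR adjusted p = 0.0673) and Srxn1, the sulfiredoxin that repairs overoxidized peroxiredoxins (0.11, edgeR adjusted p = 0.0654), were not called.

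In the rescue set the peroxiredoxin differences were smaller. Prdx3 read 85.97, 82.8 and 88.96 CPM in LacZ, 89.4, 96.4 and 85.8 in JMJD1A(WT) and 77.1, 80.8 and 77.3 in JMJD1A(H1122A), the last below the others in every library (log2 fold change -0.20 ± 0.056 (SE), edgeR adjusted p = 0.00622 against JMJD1A(WT)). Against LacZ it was not called (log2 fold change -0.131, edgeR adjusted p = 0.1575). Prdx2 was lower with JMJD1A(WT) than with LacZ (236 ± 9.6 against 259 ± 4.55 CPM, log2 fold change -0.14 ± 0.041 (SE), edgeR adjusted p = 0.0219). That call did not survive leaving out LacZ replicate 2, LacZ replicate 3, JMJD1A(WT) replicate 1 or JMJD1A(WT) replicate 3. Srxn1 had a log2 fold change of -0.13 in JMJD1A(H1122A) relative to JMJD1A(WT) (edgeR adjusted p = 0.0403), and this call was lost in every fit that left out a JMJD1A(WT) or JMJD1A(H1122A) library. The Srxn1 call was also lost without the count filter and without LacZ replicate 3. Prdx4 read 185 ± 3.58, 188 ± 0.75 and 185 ± 9.95 CPM in LacZ, JMJD1A(WT) and JMJD1A(H1122A), and was not called.

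Thioredoxin reduces the peroxiredoxins and many other proteins, in the cytosol from Txn1 and in mitochondria from Txn2. Txn2 read 117, 116 and 121 CPM in sh-Empty and 93.9, 95.1 and 86.2 CPM in sh-Jmjd1a (log2 fold change -0.37 ± 0.053 (SE), edgeR adjusted p = 1.44e-06). Txnip, the thioredoxin-binding protein that restrains thioredoxin and glucose uptake, read 193, 187 and 192 CPM and 291, 296 and 279.9 CPM, 1.51-fold higher (log2 fold change 0.60 ± 0.042 (SE), edgeR adjusted p = 1.54e-12). Both pairs of groups were free of overlap. Txn1 (149.7 ± 2.44 against 161 ± 8.35 CPM) and the reductases Txnrd1 (108 ± 2.71 against 103 ± 0.603) and Txnrd2 (7.91 ± 1.19 against 7.67 ± 0.902) were not called (edgeR adjusted p = 0.0793, 0.325 and 0.908).

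Txn1 was lower with JMJD1A(WT) than in both other rescue groups. It read 149, 161 and 163 CPM in LacZ, 138, 139.8 and 141 in JMJD1A(WT) and 153, 160.0 and 163 in JMJD1A(H1122A). All JMJD1A(WT) libraries lay below the rest (log2 fold change -0.18 ± 0.046 (SE), edgeR adjusted p = 0.00652 against LacZ, and 0.19 for JMJD1A(H1122A) against JMJD1A(WT), edgeR adjusted p = 0.00205). The call against LacZ was lost without LacZ replicate 3 (edgeR adjusted p = 0.0695). Txnip read 242, 256 and 255 CPM in LacZ, 254, 263 and 256 in JMJD1A(WT) and 282, 291 and 278 in JMJD1A(H1122A), highest in the last (log2 fold change 0.14 ± 0.04 (SE), edgeR adjusted p = 0.00754 against JMJD1A(WT), and 0.18 against LacZ, edgeR adjusted p = 0.00243). The call against JMJD1A(WT) was lost without JMJD1A(H1122A) replicate 2 (edgeR adjusted p = 0.0537). Txn2 was -0.14 with JMJD1A(H1122A) against JMJD1A(WT) (edgeR adjusted p = 0.0463), a call lost in every fit that left out a library of either group, and under 4 other settings.

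**Figure D3:**
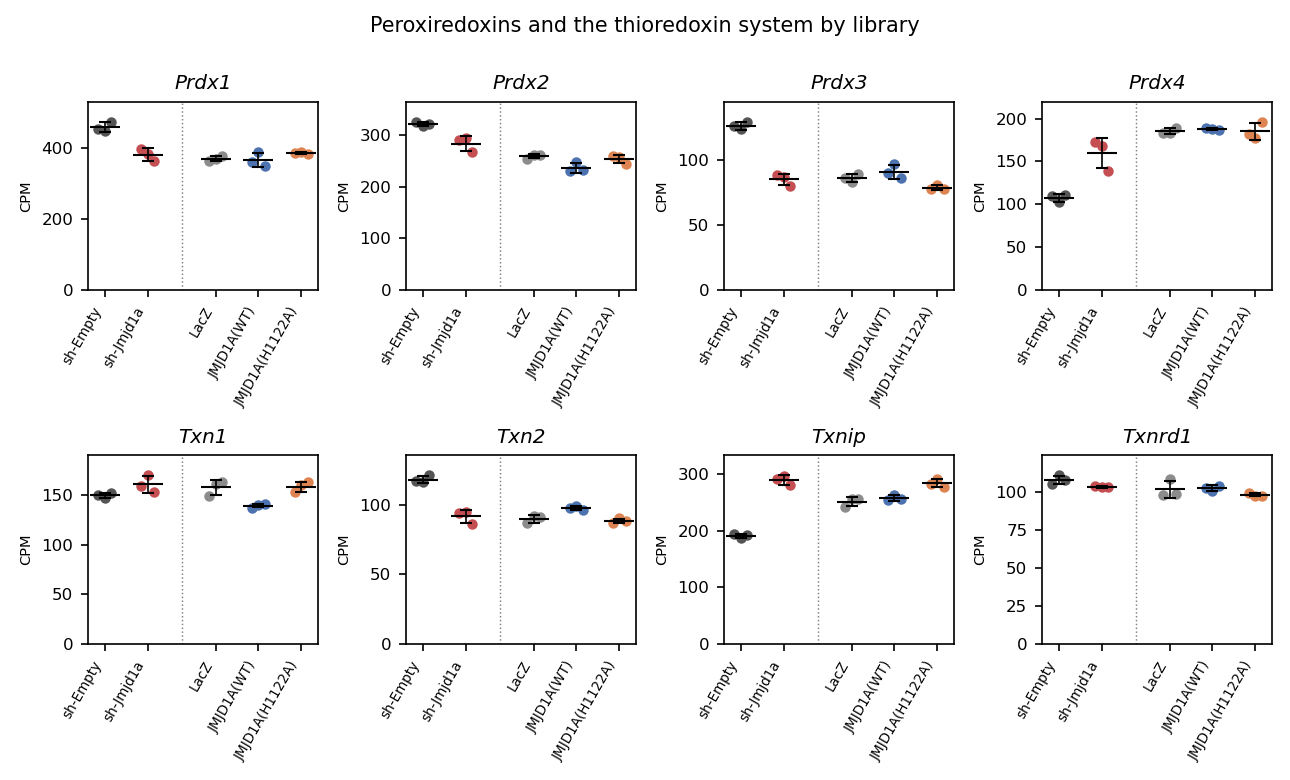
Normalized levels (CPM, y axis from 0) of Prdx1, Prdx2, Prdx3, Prdx4, Txn1, Txn2, Txnip and Txnrd1 in each library by group (x axis), with the mean and SD of the 3 replicates as bars and a dotted line between the sets, which were scaled apart. Prdx3 falls from 123 to 129 CPM in sh-Empty to 79.9 to 87.9 in sh-Jmjd1a and Prdx4 rises from 102 to 111 to 139 to 172, while Txn1 is lowest in JMJD1A(WT), at 138 to 141 CPM.

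The genes of glutathione supply parted on knockdown into cystine import and Gclc, which were higher, and the rest, which were lower. Slc7a11, the light chain of the cystine/glutamate exchanger (mm9 chr3:50168858-50247535, minus strand), read 2.995, 1.98 and 3.496 CPM in sh-Empty and 15.6, 12.6 and 11.03 CPM in sh-Jmjd1a. This 4.49-fold gap was the largest of the set (log2 fold change 2.17 ± 0.20 (SE), edgeR adjusted p = 2.96e-10), from a low starting level. Gclc, the catalytic subunit of glutamate-cysteine ligase (mm9 chr9:77602342-77642292, plus strand), read 100.5, 99.9 and 108 CPM and 183, 182 and 185 CPM, 1.78-fold higher (log2 fold change 0.83 ± 0.048 (SE), edgeR adjusted p = 1.71e-14). Its partner Gclm, the modifier subunit, went the other way, from 21.8, 21.6 and 19.8 CPM to 15.7, 17.4 and 15.2 CPM (log2 fold change -0.38 ± 0.10 (SE), edgeR adjusted p = 0.00348).

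Gss, which completes glutathione, read 24.1, 23.6 and 27.1 CPM in sh-Empty and 19.4, 21.1 and 18.2 CPM in sh-Jmjd1a (log2 fold change -0.36 ± 0.10 (SE), edgeR adjusted p = 0.00302). Gsr, glutathione reductase, read 70.5, 78.8 and 70.95 CPM and 58, 50.7 and 49.3 CPM (log2 fold change -0.48 ± 0.069 (SE), edgeR adjusted p = 1.31e-06). All 5 pairs of groups were free of overlap.

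In the rescue set Gclc again moved and Slc7a11 did not pass the test. Gclc read 124, 109.5 and 124 CPM in LacZ, 103, 104 and 98.5 in JMJD1A(WT) and 139.8, 145 and 136 in JMJD1A(H1122A). The 3 groups were separate, JMJD1A(WT) below LacZ (log2 fold change -0.24 ± 0.051 (SE), edgeR adjusted p = 0.00101) and JMJD1A(H1122A) above both (log2 fold change 0.47 ± 0.051 (SE), edgeR adjusted p = 5.78e-10 against JMJD1A(WT), and 0.23 against LacZ, edgeR adjusted p = 0.00147). Slc7a11 read 13.7, 10.6 and 12.3 CPM in LacZ, 11.2, 9.38 and 12.4 in JMJD1A(WT) and 10.1, 11.2 and 8.91 in JMJD1A(H1122A) (log2 fold change -0.11 ± 0.13 (SE), edgeR adjusted p = 0.695 for JMJD1A(WT) against LacZ). Gsr read 53.1, 56.9 and 64.3 CPM, 56.6, 58.7 and 54 and 47.7, 49.6 and 45.4, lowest in JMJD1A(H1122A) (log2 fold change -0.24 ± 0.069 (SE), edgeR adjusted p = 0.00959 against JMJD1A(WT), and -0.28 against LacZ, edgeR adjusted p = 0.00571). The first call was lost without JMJD1A(H1122A) replicate 3 (edgeR adjusted p = 0.0581) and the other without LacZ replicate 3 (edgeR adjusted p = 0.104). Gclm and Gss were not called in the rescue set.

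NRF2 and KEAP1 themselves were not called on knockdown. Nfe2l2 read 98.4, 105 and 98.8 CPM in sh-Empty and 108, 124 and 91.8 CPM in sh-Jmjd1a (log2 fold change 0.10 ± 0.092 (SE), edgeR adjusted p = 0.415), and its 3 knockdown libraries spread more widely than the controls. Without sh-Jmjd1a replicate 3 it was called higher (log2 fold change 0.22, edgeR adjusted p = 0.000409). Keap1 read 53.5 ± 2.16 and 48.2 ± 2.88 CPM (log2 fold change -0.15 ± 0.068 (SE), edgeR adjusted p = 0.0753). Hmox1, heme oxygenase, read 65.5 ± 2.51 and 62.4 ± 0.178 CPM (log2 fold change -0.07 ± 0.06 (SE), edgeR adjusted p = 0.361).

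Nqo1, the NADPH quinone oxidoreductase and a standard NRF2 target (mm9 chr8:109912125-109927106, minus strand), had, together with Gsta4, the highest fold change of the members between the 2 forms of JMJD1A. It read 60.1, 64.8 and 56.01 CPM in LacZ, 41.7, 39.7 and 44.3 in JMJD1A(WT) and 81.3, 80.3 and 88.8 in JMJD1A(H1122A). The 3 groups were separate, with LacZ in the middle, and Nqo1 was 1.97-fold higher with JMJD1A(H1122A) than with JMJD1A(WT) (log2 fold change 0.98 ± 0.065 (SE), edgeR adjusted p = 1.65e-16). JMJD1A(WT) lay below LacZ (log2 fold change -0.51 ± 0.067 (SE), edgeR adjusted p = 1.33e-07) and JMJD1A(H1122A) above it (log2 fold change 0.47 ± 0.063 (SE), edgeR adjusted p = 4.62e-07). On knockdown Nqo1 rose from 55.7, 49.8 and 60.7 CPM to 64.1, 69.5 and 68.6 CPM (log2 fold change 0.28 ± 0.069 (SE), edgeR adjusted p = 0.00142). With JMJD1A(H1122A) against JMJD1A(WT), Nfe2l2 (0.16, edgeR adjusted p = 0.0232) and Hmox1 (0.19, edgeR adjusted p = 0.0159) were also called higher. Both were lost without JMJD1A(H1122A) replicate 3 or without JMJD1A(WT) replicate 3. Nfe2l2 was also lost without JMJD1A(WT) replicate 2 and in the single fit of all 15 libraries. Keap1 was not called (0.091, edgeR adjusted p = 0.389).

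**Figure D4:**
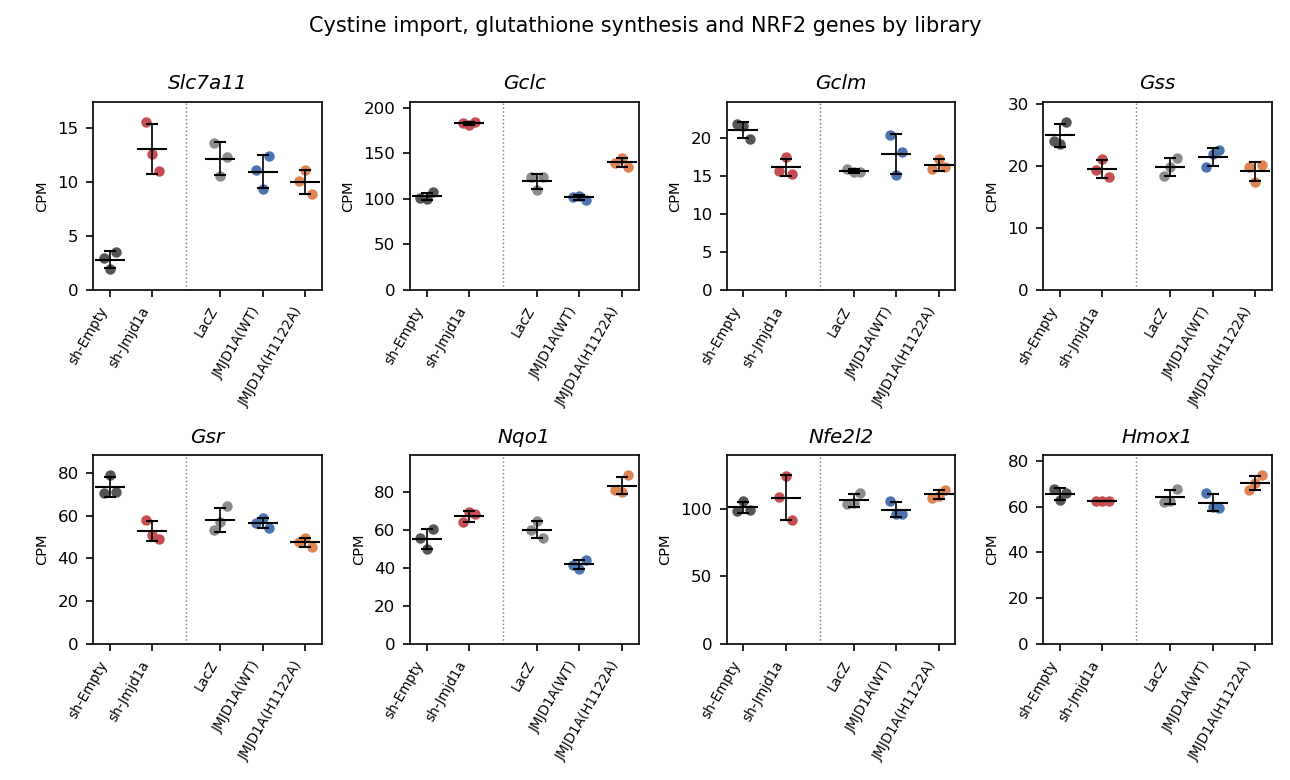
Normalized levels (CPM, y axis from 0) of Slc7a11, Gclc, Gclm, Gss, Gsr, Nqo1, Nfe2l2 and Hmox1 in each library by group (x axis), with the mean and SD of the 3 replicates as bars and a dotted line between the sets, which were scaled apart. Gclc and Nqo1 are lowest of the rescue set in JMJD1A(WT), at 98.5 to 104 and 39.7 to 44.3 CPM, and highest in JMJD1A(H1122A), at 136 to 145 and 80.3 to 88.8, while Slc7a11 rises from 1.98 to 3.496 CPM in sh-Empty to 11.03 to 15.6 in sh-Jmjd1a.

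Glutathione transferases join glutathione to electrophiles, and the membrane-bound MGST1 and MGST3 also reduce lipid peroxides. Mgst3 (mm9 chr1:169302097-169323972, minus strand) read 106, 108 and 119 CPM in sh-Empty and 68.4, 67.6 and 62.8 CPM in sh-Jmjd1a (log2 fold change -0.75 ± 0.059 (SE), edgeR adjusted p = 1.65e-11). Mgst1 read 87.2, 90.1 and 89.1 CPM and 54.6, 55.7 and 54.9 CPM (log2 fold change -0.69 ± 0.057 (SE), edgeR adjusted p = 5.82e-11). Gsta4, whose enzyme clears aldehydes formed from oxidized lipids, read 15.4, 16.7 and 16.1 CPM and 10.99, 9.76 and 9.95 CPM (log2 fold change -0.65 ± 0.12 (SE), edgeR adjusted p = 5.18e-05). All 3 were free of overlap. Gsto1 was 0.34 higher on the log2 scale (edgeR adjusted p = 1.33e-05), and Gstm1, Gstm2 and Gstp1 were not called (0.018, 0.11 and 0.017, edgeR adjusted p = 0.918, 0.338 and 0.91). Gstm1, Gstm2 and Gstp1 have near-identical relatives, and Prdx1, Txn1 and Gpx4 have processed copies in the genome, so their reads may be split among copies.

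With JMJD1A(WT) against LacZ both membrane-bound transferases were higher and Gsta4 was lower. Mgst3 read 74.6, 77.7 and 76.6 CPM in LacZ, 93.5, 101 and 88.3 in JMJD1A(WT) and 57.6, 64.9 and 60.9 in JMJD1A(H1122A), 3 separate groups with JMJD1A(WT) highest (log2 fold change 0.29 ± 0.056 (SE), edgeR adjusted p = 1.81e-04 against LacZ) and JMJD1A(H1122A) lowest (log2 fold change -0.61 ± 0.059 (SE), edgeR adjusted p = 2.59e-11 against JMJD1A(WT), and -0.32 against LacZ, edgeR adjusted p = 3.43e-04). Mgst1 read 54.98, 51.5 and 48.1 CPM, 61.4, 64.3 and 58.2 and 56.8, 61.2 and 49.4 in the same order. It was called for JMJD1A(WT) against LacZ (log2 fold change 0.24 ± 0.068 (SE), edgeR adjusted p = 0.0163), a call lost without LacZ replicate 3 or without JMJD1A(WT) replicate 1 or 2.

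Gsta4 (mm9 chr9:78039773-78057155, plus strand) had its lowest rescue levels in JMJD1A(WT). It read 12.7, 12.96 and 11.5 CPM in LacZ, 9.04, 7.43 and 8.203 in JMJD1A(WT) and 16.6, 15.2 and 16.96 in JMJD1A(H1122A). It was lower with JMJD1A(WT) than LacZ (log2 fold change -0.59 ± 0.13 (SE), edgeR adjusted p = 0.00112) and 1.97-fold higher with JMJD1A(H1122A) than JMJD1A(WT) (log2 fold change 0.98 ± 0.12 (SE), edgeR adjusted p = 3.09e-08). It was thus lower both on knockdown and with JMJD1A(WT). Gstm1 read 15.8, 17.6 and 17.04 CPM, 14.3, 13.2 and 14.2 and 24.8, 23.1 and 20.8 in LacZ, JMJD1A(WT) and JMJD1A(H1122A), highest in the last in every library (log2 fold change 0.72 ± 0.10 (SE), edgeR adjusted p = 4.08e-07 against JMJD1A(WT)). Gstm2 read 33.1, 33.98 and 31.5 CPM, 29.2, 34.7 and 29.1 and 40.9, 40.7 and 38.6, with JMJD1A(H1122A) again above the rest (log2 fold change 0.39 ± 0.079 (SE), edgeR adjusted p = 1.68e-04). Against LacZ, JMJD1A(H1122A) had higher Gstm1 (0.45, edgeR adjusted p = 0.00247), Gsta4 (0.39, edgeR adjusted p = 0.0301) and Gstm2 (0.29, edgeR adjusted p = 0.0152), and the Gsta4 and Gstm2 calls were lost without LacZ replicate 3 or JMJD1A(H1122A) replicate 1, among others. Gsto1 was -0.14 with JMJD1A(H1122A) against JMJD1A(WT) (edgeR adjusted p = 0.0469), a call lost without any library of these groups except JMJD1A(H1122A) replicate 3. The Gsto1 call was also lost with DESeq2, without the count filter, without LacZ replicate 3 and in the single fit of all 15 libraries. Gstp1 read 147, 141 and 154 CPM, 129, 174 and 121 and 147, 136 and 156, and without the high JMJD1A(WT) replicate 2 it was called lower with JMJD1A(WT) than LacZ (log2 fold change -0.24, edgeR adjusted p = 0.00112).

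**Figure D5:**
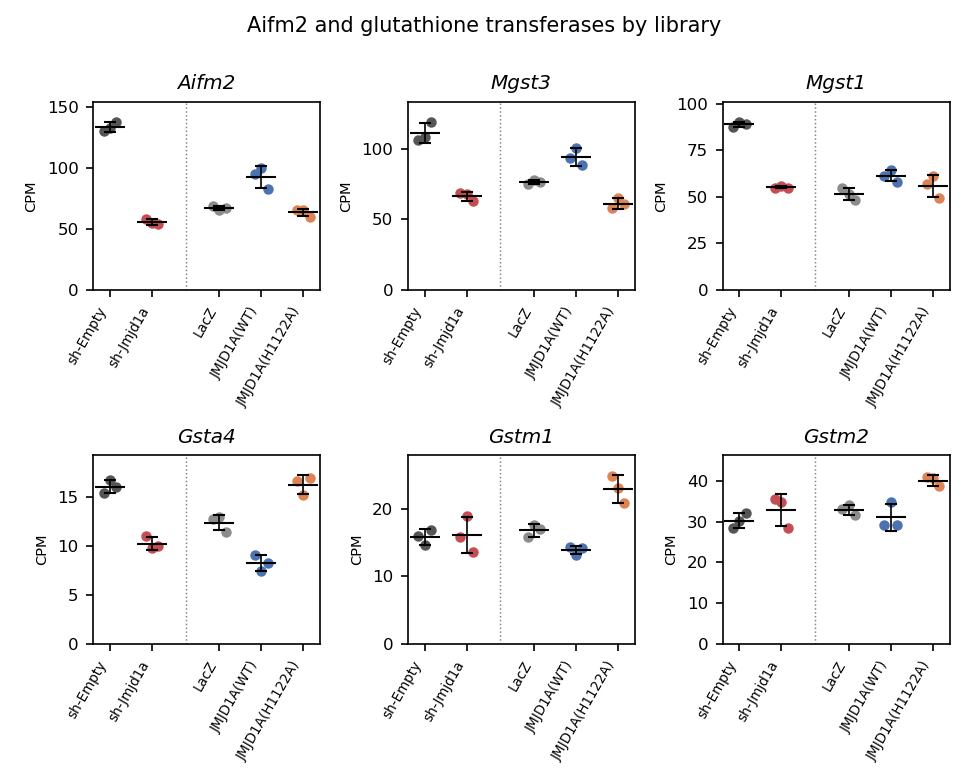
Normalized levels (CPM, y axis from 0) of Aifm2, Mgst3, Mgst1, Gsta4, Gstm1 and Gstm2 in each library by group (x axis), with the mean and SD of the 3 replicates as bars and a dotted line between the sets, which were scaled apart. Aifm2 and Mgst3 are highest of the rescue set in JMJD1A(WT), at 83.1 to 100.1 and 88.3 to 101 CPM, and Gsta4 and Gstm1 are highest in JMJD1A(H1122A), at 15.2 to 16.96 and 20.8 to 24.8 CPM.

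Read across the knockdown, JMJD1A(WT) against LacZ and JMJD1A(H1122A) against JMJD1A(WT), 5 members were called in every comparison. Aifm2 and Mgst3 were lower, higher and lower in that order. Gclc and Nqo1 were higher, lower and higher. Gsta4 was lower, lower and higher. The share of all genes called in every comparison was not counted, so these 5 members have no background beside them. The last 2 comparisons share the JMJD1A(WT) libraries, so their opposite signs are partly fixed by them. Of the 4 members whose knockdown change passed 1 on the log2 scale, Slc7a11, Aifm2, Sod2 and Sod3, only Aifm2 was called with JMJD1A(WT) against LacZ. Prdx5, Txnrd1, Txnrd2, Keap1 and Gstp1 were called in none of the 4 comparisons.

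Genes around the defense set were read from 7 further lists. Their median log2 fold changes on knockdown were -0.059 (NADPH supply), -0.0024 (other glutathione genes), 0.016 (other NRF2 pathway genes), -0.17 (other ferroptosis genes), -0.069 (selenoproteins), 0.038 (further thiol enzymes) and 0.27 (oxidant producers), against -0.0032 over all genes. NADPH, which recharges glutathione and thioredoxin, depends on 18 tested supply genes, of which 8 were lower (background 23.9%) and 3 higher (background 22.3%) on knockdown. Taldo1, of the pentose phosphate pathway, went from 209 ± 5.69 to 90.5 ± 8.36 CPM (SD, n = 3; log2 fold change -1.21 ± 0.054, edgeR adjusted p = 9.58e-17). Idh1, the cytosolic NADPH-forming isocitrate dehydrogenase, went from 737 ± 10.8 to 408 ± 3.38 CPM (SD, n = 3; log2 fold change -0.85 ± 0.037, edgeR adjusted p = 4.03e-17). Aldh1l2, the mitochondrial folate enzyme that yields NADPH, went the other way, from 19.9 ± 0.325 to 86.5 ± 6.07 CPM (SD, n = 3; log2 fold change 2.12 ± 0.075, edgeR adjusted p = 3.81e-19). With JMJD1A(WT) against LacZ 2 of the 18 were lower (background 4.52%) and 3 higher (background 4.98%), among them Idh1 (0.34) and Taldo1 (0.32), and with JMJD1A(H1122A) against JMJD1A(WT) 7 were lower (background 11.7%), Taldo1 (-0.68) and Idh1 (-0.44) included, and 3 higher (background 12.1%). Mthfd2 was lower with JMJD1A(WT) than LacZ (-0.24) and higher with JMJD1A(H1122A) than JMJD1A(WT) (0.44).

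Of 24 other glutathione and glutaredoxin genes tested in the knockdown set, 6 were lower and 5 higher, near the 23.9% and 22.3% of all genes. Chac1, whose enzyme degrades glutathione, went from 5.72 ± 1.07 to 17.1 ± 0.55 CPM (SD, n = 3; log2 fold change 1.59 ± 0.14, edgeR adjusted p = 2.42e-10). Ltc4s, which joins glutathione to leukotriene A, went from 9.88 ± 0.322 to 3.76 ± 0.684 CPM (SD, n = 3; log2 fold change -1.39 ± 0.18, edgeR adjusted p = 1.86e-07), and Hagh, glyoxalase II, from 42.8 ± 1.52 to 21.6 ± 1.54 CPM (SD, n = 3; log2 fold change -0.99 ± 0.083, edgeR adjusted p = 6.45e-11). In the rescue set 23 were tested. Ltc4s was higher with JMJD1A(WT) than LacZ (1.71) and lower with JMJD1A(H1122A) than JMJD1A(WT) (-2.06), and Abcc4, an exporter of glutathione conjugates, moved in the opposite directions (-0.42 and 0.57). Against JMJD1A(WT), JMJD1A(H1122A) had 1 of the 23 lower (background 11.7%) and 4 higher (background 12.1%).

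Of 29 other genes of the NRF2 pathway, 9 were lower (background 23.9%) and 7 higher (background 22.3%) on knockdown, shares near those of all genes. Cbr3, a carbonyl reductase, went from 132 ± 6.21 to 55.8 ± 4.102 CPM (SD, n = 3; log2 fold change -1.25 ± 0.06, edgeR adjusted p = 3.33e-16), and Slc6a9, a glycine transporter, from 4.25 ± 1.17 to 12.02 ± 1.103 CPM (SD, n = 3; log2 fold change 1.54 ± 0.18, edgeR adjusted p = 3.52e-08). With JMJD1A(WT) against LacZ 2 were called, both higher (background 4.98%), and with JMJD1A(H1122A) against JMJD1A(WT) 1 was lower, Cbr3 (-0.52; background 11.7%), and 7 were higher (background 12.1%), Aldh3a1 (0.35) among them. Of 28 other ferroptosis genes, 13 were lower (background 23.9%) and 6 higher (background 22.3%) on knockdown. The oxidoreductase gene Cyb5r1 went from 41.95 ± 0.836 to 90.8 ± 5.31 CPM (SD, n = 3; log2 fold change 1.11 ± 0.063, edgeR adjusted p = 1.57e-14), Sat1, of polyamine breakdown, from 175 ± 2.05 to 307 ± 18.6 CPM (SD, n = 3; log2 fold change 0.81 ± 0.045, edgeR adjusted p = 1.13e-14), and Pdss1, of coenzyme Q synthesis, from 11.2 ± 0.353 to 6.203 ± 1.202 CPM (SD, n = 3; log2 fold change -0.86 ± 0.16, edgeR adjusted p = 4.26e-05). With JMJD1A(H1122A) against JMJD1A(WT) 6 of the 28 were lower (background 11.7%) and 6 higher (background 12.1%), with Acsl4, which loads polyunsaturated fatty acids (-0.37), and Por (-0.34) among the lower.

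Of 22 selenoprotein genes, the factors that make them included, 9 were lower (background 23.9%) and 5 higher (background 22.3%) on knockdown. Dio2, the activating thyroid hormone deiodinase, went from 5.24 ± 0.301 to 17.7 ± 0.928 CPM (SD, n = 3; log2 fold change 1.76 ± 0.14, edgeR adjusted p = 1.65e-11), while Txnrd3 (-0.53) and Selenoi (-0.41) were lower. With JMJD1A(H1122A) against JMJD1A(WT) 4 were lower (background 11.7%) and 3 higher (background 12.1%), Selenom (0.46) and Dio2 (0.53) among the latter. Of 15 further thiol enzymes 4 were lower and 3 higher on knockdown, beside the same 23.9% and 22.3%, and 1 lower and 5 higher with JMJD1A(H1122A) against JMJD1A(WT), beside 11.7% and 12.1%. Qsox1, a sulfhydryl oxidase of the secretory pathway, went from 472 ± 11.9 to 228 ± 4.04 CPM (SD, n = 3; log2 fold change -1.05 ± 0.04, edgeR adjusted p = 2.37e-18), and Ero1a, the oxidase of the endoplasmic reticulum, from 89.6 ± 6.32 to 136 ± 8.95 CPM (SD, n = 3; log2 fold change 0.60 ± 0.058, edgeR adjusted p = 1.01e-09). Qsox1 was higher with JMJD1A(WT) than LacZ (0.28) and lower with JMJD1A(H1122A) than JMJD1A(WT) (-0.52). Of the 5 oxidant-producing genes tested, 3 were higher on knockdown (background 22.3%). Nox4, an NADPH oxidase that makes hydrogen peroxide, went from 4.23 ± 0.291 to 7.89 ± 0.097 CPM (SD, n = 3; log2 fold change 0.90 ± 0.17, edgeR adjusted p = 9.52e-05), and Maoa was higher (0.43). Ltc4s and Qsox1, like Aifm2, are on the list the study drew from these samples and its H3K9me2 CUT&Tag data.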

How the data were processed

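Poly(A) RNA from 3T3-L1 cells on day 2 was sequenced, and the authors deposited raw read counts per gene for each of the 15 libraries. Reads were trimmed with fastp, aligned to mm9 with HISAT2 and counted with featureCounts, per the submitters' processing notes and the paper. The counting annotation, its strand setting and the handling of multimapping reads are not given in the sources used here. The kit name differs between the labels and the paper. Genes are numbered by Entrez, and 24191 of 26301 matched a symbol in a RefSeq table of GRCm38.p6, used for names only. The rest held 0.50% of counts. Coordinates come from GENCODE for mm9.

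The counts were tested with edgeR 4.0.16 in R 4.3.3 (TMM factors, filterByExpr with a minimum count of 10, robust quasi-likelihood F test, Benjamini-Hochberg over all genes tested, threshold 0.05). The 6 libraries of the knockdown set and the 9 of the rescue set were fitted apart, without a replicate block. Fold changes carry standard errors, and levels are given as mean and SD of 3 libraries. The script was tested on simulated data. Alternatives were RLE factors, DESeq2 1.42.0, no filter, 1 fit of all 15 libraries, the older quasi-likelihood method, a threshold of 0.01, a block for the replicate number, and fits that each left out 1 library. Tested members had at least 23 counts in each library. Over all genes, libraries of a group differed by 2.06 to 5.22 times counting noise, so counting error is a part of the spread of replicates.

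The 38 members, the pathway lists and the marker lists were chosen with earlier results of these data known. Members named with values were Kdm3a, the called members without overlap between groups (up to 8 a direction), the defining members of each role, and up to 3 genes of each pathway list with the largest called changes at a mean of at least 5 CPM. Histone CUT&Tag was not analysed here. A single gene of the oxidant-producing list is not reported here by name or value.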

Additional observations from a re-analysis of the deposited data

How the results depend on the processing

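The numbers of members called held within 1.5 times of the reported numbers under most alternatives, and no called direction reversed, while some members that were not called changed sign. With JMJD1A(H1122A) against JMJD1A(WT), the 8 called lower became 5 without the count filter and 5 at a threshold of 0.01, and the 12 called higher became 7 at 0.01. Leaving out each library in turn gave 5 to 8 lower and 7 to 14 higher there, the 7 without JMJD1A(WT) replicate 3. On knockdown it gave 15 to 17 lower and 9 to 16 higher, the 16 without sh-Jmjd1a replicate 3. With JMJD1A(WT) against LacZ it gave 3 to 6 lower, the 3 without LacZ replicate 3, and 2 to 4 higher. JMJD1A(H1122A) against LacZ gave 2 to 4 lower and 4 to 6 higher. The causes of these shifts, the smaller number of libraries included, were not tested. Of 2109 recomputed fold changes of single genes, 2022 kept their direction and side of the threshold where called, 63 lost the call and 24 gained it, 46 of the losses with JMJD1A(H1122A) against JMJD1A(WT). Replicate numbers gave no clear pairing of the libraries. The deviations of libraries with the same number correlated between -0.061 and 0.067 over genes, and those with different numbers between -0.088 and 0.086. Most same-number correlations of the rescue set were positive, and a weak pairing there was not tested. With the number as a block, 15 members were lower and 10 higher on knockdown, 5 and 3 with JMJD1A(WT) against LacZ, 8 and 13 for JMJD1A(H1122A) against JMJD1A(WT), where Prdx2 was added, and 4 and 6 with JMJD1A(H1122A) against LacZ, where Prdx5 was added.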

Other observations

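Grouped by the place where their proteins work, a grouping made after the values were seen and given no test, the 5 mitochondrial members were lower or not called on knockdown, with Sod2, Prdx3 and Txn2 lower (23.9% of all genes were) and Prdx5 and Txnrd2 not called. Sod2, Prdx3 and Txn2 were also called lower in JMJD1A(H1122A) than in JMJD1A(WT) (11.7% of all genes were), but the Txn2 call was lost under 10 alternatives, DESeq2 among them. The 4 tested members that work in the lumen of the endoplasmic reticulum or outside the cell, Prdx4, Gpx7, Gpx8 and Sod3, were all higher on knockdown (22.3% of all genes were), and of these Gpx7 and Gpx8 were higher with JMJD1A(H1122A) than with JMJD1A(WT) (12.1% of all genes were). The Gpx7 calls were lost under 2 alternatives on knockdown and 3 with JMJD1A(H1122A), and the Gpx8 call with JMJD1A(H1122A) under 5. With JMJD1A(WT) against LacZ, 0 of the 5 mitochondrial members and 0 of these 4 were called (9.5% of all genes were). With JMJD1A(H1122A) against LacZ only Sod2 was called among them, and it was lower (4.46% of all genes were).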
